A study of Mus musculus with 21 samples.

Results

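The constitutive proteasome subunit genes were taken as all rows of a mouse striatal RNA sequencing table whose symbol begins with Psma, Psmb, Psmc or Psmd and a digit. Of 41128 gene symbols, 43 begin that way. The rule left out 7 of these, namely the inducible subunit genes Psmb8, Psmb9 and Psmb10, the pseudogenes Psmb5-ps, Psmb6-ps and Psmb7-ps2, and Psmc3ip, whose product is no proteasome subunit. The other 36 symbols are the members described here. They include 3 genes, Psmd5, Psmd9 and Psmd10, whose products are assembly chaperones and not parts of the finished particle.

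RNA came from striatal tissue of mice described in the labels as wild type, 3 weeks after adeno-associated virus (AAV, a non-replicating gene carrier) had been injected into the striatum. The age is given as 3 weeks in one label and as 3 months in another, which was not resolved. The first set of libraries, called set A, held 3 libraries each labelled WT, Cas9 and GCas9. Set B held 4 libraries each labelled GFP, Cas9 and GCas9. Cas9 cuts DNA at a site chosen by its guide RNA, and GFP, a fluorescent protein, was the control cargo of set B. The labels do not say what GCas9 is, but it is known from the study as a fusion of Cas9 with part of Geminin, a protein broken down during part of the cell cycle. All mice fall under the same injection protocol, and whether the WT mice received a virus is not stated, so every WT comparison may contain the effect of injection. The promoter driving each cargo and any guide RNA are not given in the sources used here. Nothing states whether the replicates were separate mice, so p-values measure the spread between libraries only.

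The proteasome is the main protease of the cytosol and nucleus for proteins tagged with ubiquitin. Its 20S core is a barrel of stacked rings: outer rings of alpha subunits (Psma genes), which gate the entrance, and inner rings of beta subunits (Psmb genes), of which the products of Psmb5, Psmb6 and Psmb7 carry the cutting sites. The 19S cap binds the ubiquitin chain and unfolds the substrate. It has a base, with an ATPase ring (Psmc genes) and large scaffold or receptor subunits, and a lid (other Psmd genes) that holds the deubiquitinase encoded by Psmd14. In cells exposed to interferon, the products of Psmb8, Psmb9 and Psmb10 can take the places of the constitutive cutting subunits and form the immunoproteasome. When proteasome activity falls short, the transcription factor encoded by Nfe2l1 is known to raise the constitutive genes together through antioxidant response elements. Neurons depend on the particle for turnover of synaptic proteins and clearance of misfolded proteins.

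Stretches before a RefSeq start are shown for 4 genes, to set constitutive genes beside an inducible one. They come from RefSeq on GRCm38.p6, which holds a promoter entry for 29 of the 36 members. Annotated exon was trimmed away except for Psmb8. All 250 bases before the RefSeq start of Psmb8 lie in exon in GENCODE, and only 30 bases around its match are printed. That stretch is not a promoter comparable with those of the first 3 genes. Capitals mark matches to TGACNNNGC or the interferon-stimulated response element core in the first 3 genes and to TTCNNNGAA in Psmb8, motifs described in the next paragraph. The stretches are chr14:54618023-54618245 on the minus strand, chr11:70525107-70525356 on the plus strand, chr5:123227940-123228189 on the plus strand and chr17:34198087-34198116 on the plus strand.
Psmb5: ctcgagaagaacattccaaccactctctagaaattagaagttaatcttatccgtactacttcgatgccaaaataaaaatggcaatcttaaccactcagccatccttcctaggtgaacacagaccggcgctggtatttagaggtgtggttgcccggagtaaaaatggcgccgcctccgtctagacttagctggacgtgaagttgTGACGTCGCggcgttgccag
Psmb6: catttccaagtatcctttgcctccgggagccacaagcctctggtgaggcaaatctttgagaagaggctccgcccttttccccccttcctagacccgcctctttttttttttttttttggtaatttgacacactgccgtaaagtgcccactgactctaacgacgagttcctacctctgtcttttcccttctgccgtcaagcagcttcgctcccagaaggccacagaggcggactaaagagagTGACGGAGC
Psmd9: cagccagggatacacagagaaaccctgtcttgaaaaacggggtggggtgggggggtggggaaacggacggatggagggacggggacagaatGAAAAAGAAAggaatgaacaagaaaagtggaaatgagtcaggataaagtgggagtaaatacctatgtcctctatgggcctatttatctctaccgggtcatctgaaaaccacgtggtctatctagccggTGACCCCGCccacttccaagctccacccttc
Psmb8: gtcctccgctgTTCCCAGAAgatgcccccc

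Over both strands of the window from 250 bases before to 50 after each RefSeq start, the antioxidant response element core TGACNNNGC was found in 5 of the 29 member genes, which were Psmb5, Psmb6, Psmc6, Psmd9 and Psmd12. It was found in 12.4% of all 32851 promoters. The CCAAT box stood in 12 of 29 members, against 37.4% of all promoters. The core of the interferon-stimulated response element, searched as GAAA, any 2 bases and GAAA again, was found in Psmb3, Psmd4 and Psmd9, against 3.44% of all promoters. TTCNNNGAA, the core of the interferon-gamma activated site, was found in Psmd2 among the members and also in Psmb8, against 8.30% of all promoters. The CCAAT box was also found in Psmb9. Neither Psmb8 nor Psmb9 had the antioxidant or the interferon-stimulated core. These motifs do not overlap each other in the sequences printed. A match describes letters only.

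Per exonic kilobase, the level scale used for comparing genes, 34 members spanned 16.1-fold in set A and 23.1-fold in set B. Psma8 (4.47 per kilobase in set A and 2.79 in set B) and Psmb11 (0.105 and 0.057) were far lower. Their means were under 10 normalized counts, and they are left out of the spans, order and medians given here. Psmb6, whose product cuts after acidic residues, was the highest in both sets, at 2637 normalized counts per kilobase in set A and 2044 in set B. Next in both were Psmc5, of the ATPase ring, and Psmb2, of the beta ring. On this scale the assembly chaperone genes had the 3 lowest levels of the 34 in each set, and Psmd11 of the lid was next above them in both. They stood at 163 to 207 per kilobase in set A and at 88.6 to 144 in set B. That place depends on the division by length. Without it, the mean log2 level of Psmb5 in set A (8.93) was under those of Psmd9 (9.07) and Psmd5 (9.50). In set B, Psmc6 (8.82) and Psmb5 (8.90) were under Psmd5 (9.30). Besides the chaperones, the median level of a role ran in set A from 799.8 for the 8 lid genes to 1458 for the 3 cutting subunits. In set B the ATPase ring had the highest median of any role, 803, and the lid the lowest besides the chaperones, 478. The finished particle holds its subunits in fixed ratio, whereas their transcript levels per kilobase differed.

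**Figure D1:**
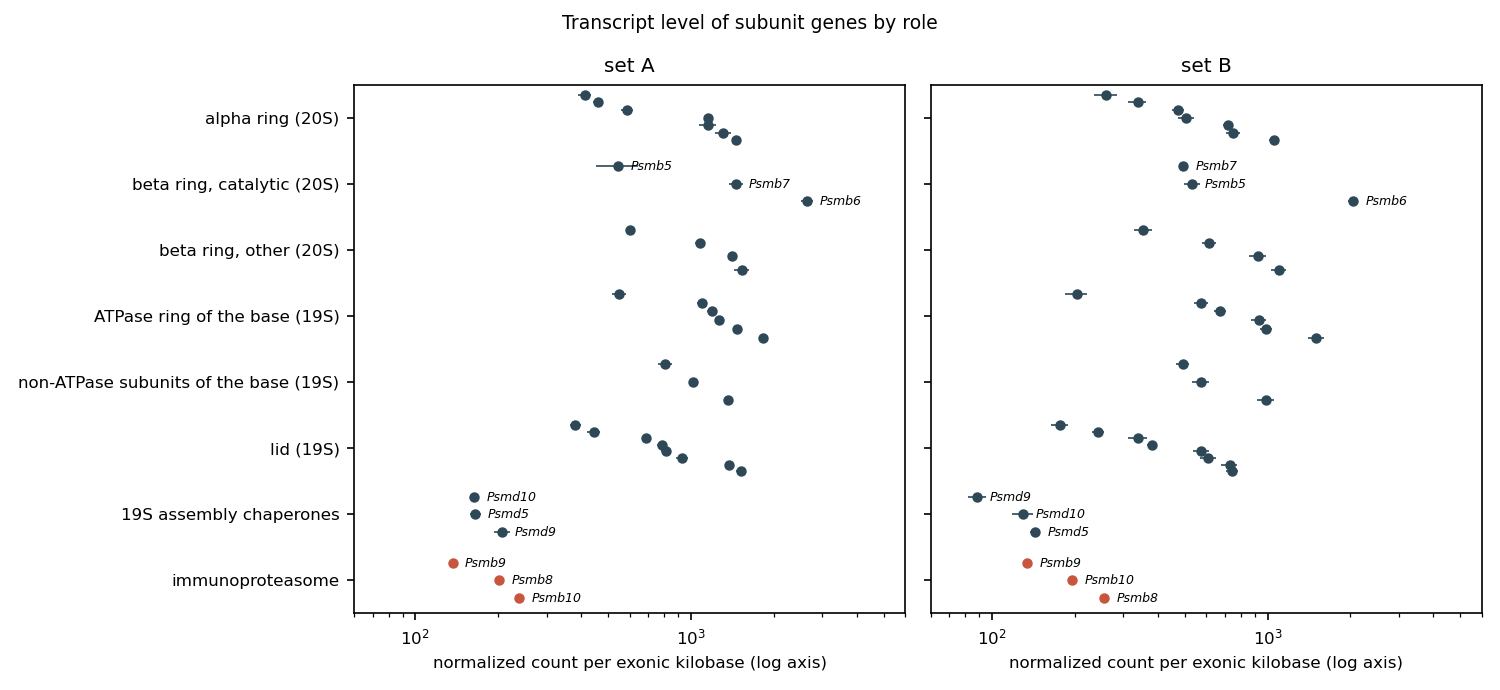
Level of each subunit gene (dots) by role, as normalized count per exonic kilobase on a log axis, in set A (left) and set B (right), averaged over all libraries of a set. Bars are the SD within groups, which for most constitutive genes is about the width of the dot, and they are left out for the inducible genes (red), whose SD was large relative to their mean. Among the constitutive genes drawn, Psmb6 stands highest and the assembly chaperone genes lowest in both sets. The inducible gene Psmb9 lies below the chaperone genes in set A (137) and among them in set B (134). Psma8 and Psmb11 are too low for the axis and are not drawn.

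The order of the 34 testable members was alike in the 2 sets, with a Spearman rho of 0.884 given as a description over 34 genes that share libraries and gene lengths. The authors scaled the sets apart, so the levels above hold within a set, and only ranks were compared between the sets. Psmb7, a cutting subunit, ranked 7 in set A and 21 in set B, the largest shift. Psma4 went from rank 11 to 20, Psmb3 from 17 to 8, Psmc4 from 13 to 5 and Psmb5 from 27 to 19. The members' share of all gene reads was 0.224 to 0.245% in set A. In set B that share was 0.377 to 0.436%. Ribosomal protein genes took 0.836 to 1.03% and 0.301 to 0.418% of the reads in the same order.

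Both members that could not be tested encode tissue-specific subunits. Psma8, the alpha subunit of the testis, gave 1 to 14 reads per library and 16 to 26 per group. Psmb11, the cutting subunit of the thymus, gave at most 2 reads in a library and 0 in all GCas9 libraries and in the Cas9 libraries of set B. Testis markers were at 0 or below 3 normalized counts in every group, and the labels give striatum. Both fell short of the mean of 10 normalized counts set for testing.

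Within a group, the constitutive members varied little between libraries. Their median SD on the log2 scale was 0.059 in set A and 0.093 in set B, against 0.144 and 0.195 over all genes tested. Only 9.43% of all genes in set A and 7.57% in set B had a spread at or below that of the median member. The members are also more abundant than most genes, with a median log2 level of 10.5 against 8.87 in set A and 9.76 against 7.68 in set B, and abundance lowers the spread from counting. Psmb5 had the largest SD of a member in set A, 0.251. Of 714 values (34 members in 21 libraries), all but 8 lay within 0.25 log2 units, or 1.19-fold, of the median of their set, and the extremes were -0.31 and 0.37. Of the 63 values of Psmb8, Psmb9 and Psmb10, 51 lay outside that limit, between -2.06 and 4.51.

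**Figure D2:**
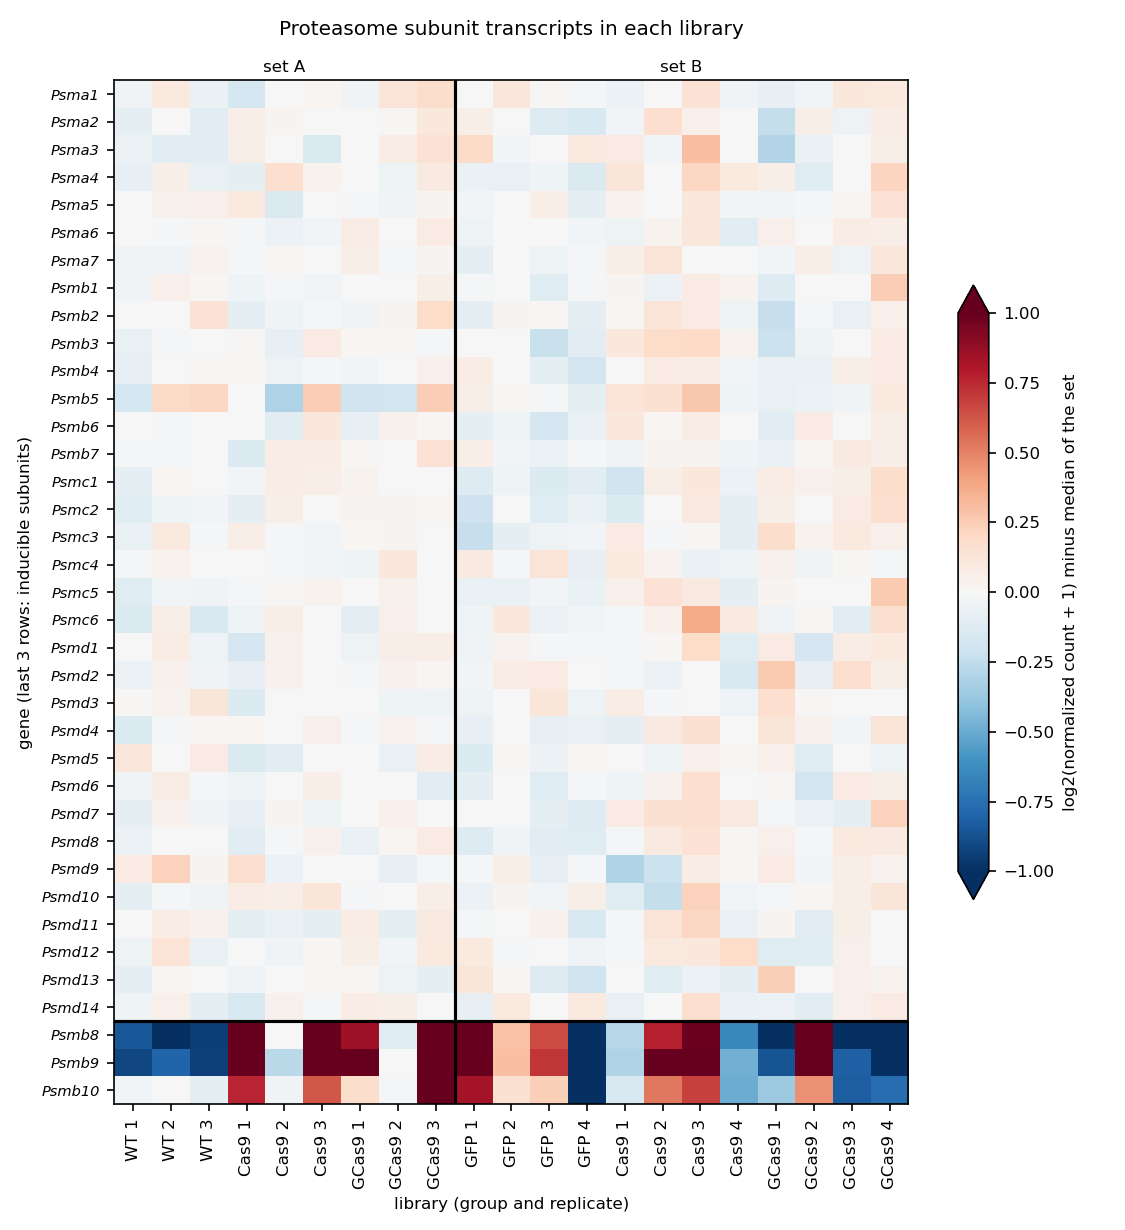
Each cell gives log2(normalized count + 1) of a gene (rows) in a library (columns) minus the median of that gene over the set, with colours capped at 1 in either direction. The 34 constitutive members stay pale, between -0.31 and 0.37, while the 3 inducible genes at the bottom run from -2.06 to 4.51.

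Whole libraries shifted by small amounts. In set B, 31 of 34 members in GCas9 replicate 4 and 29 in Cas9 replicate 3 were above the median of the set, with median deviations of 0.078 and 0.107. Their shares of ribosomal protein reads were 0.418% and 0.411%. Cas9 replicate 4 and GCas9 replicate 2 had nearly the same share, 0.4104% and 0.4101%, with 13 and 12 members above the set median. GFP replicate 4 had only 5 members above the set median. In set A the lowest library was WT replicate 1, with 4 members above and a median deviation of -0.053. The highest were WT replicate 2, with 22 above, and GCas9 replicate 3, with 23 above, both with a median deviation of 0.028. The part of such library-wide shifts in the comparisons was not tested.

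No constitutive member passed an adjusted p of 0.05 in any of the 8 comparisons (limma on log2(normalized count + 1), Benjamini-Hochberg over all genes tested). edgeR and DESeq2 on the recovered reads called none either. The estimates bound the differences closely: in 5 of the 6 comparisons within a set, the 95% interval of every tested member lay inside 1.41-fold in either direction, and in GCas9 against WT it did for 33 of 34, Psmb5 being the exception (-0.52 to 0.28 on the log2 scale). The same held for 60.3 to 63.8% of all genes tested. Few genes of any kind were called, 1 in each comparison with WT and none in the others. In bulk tissue, fewer cells of a type and less RNA per cell cannot be told apart.

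**Figure D3:**
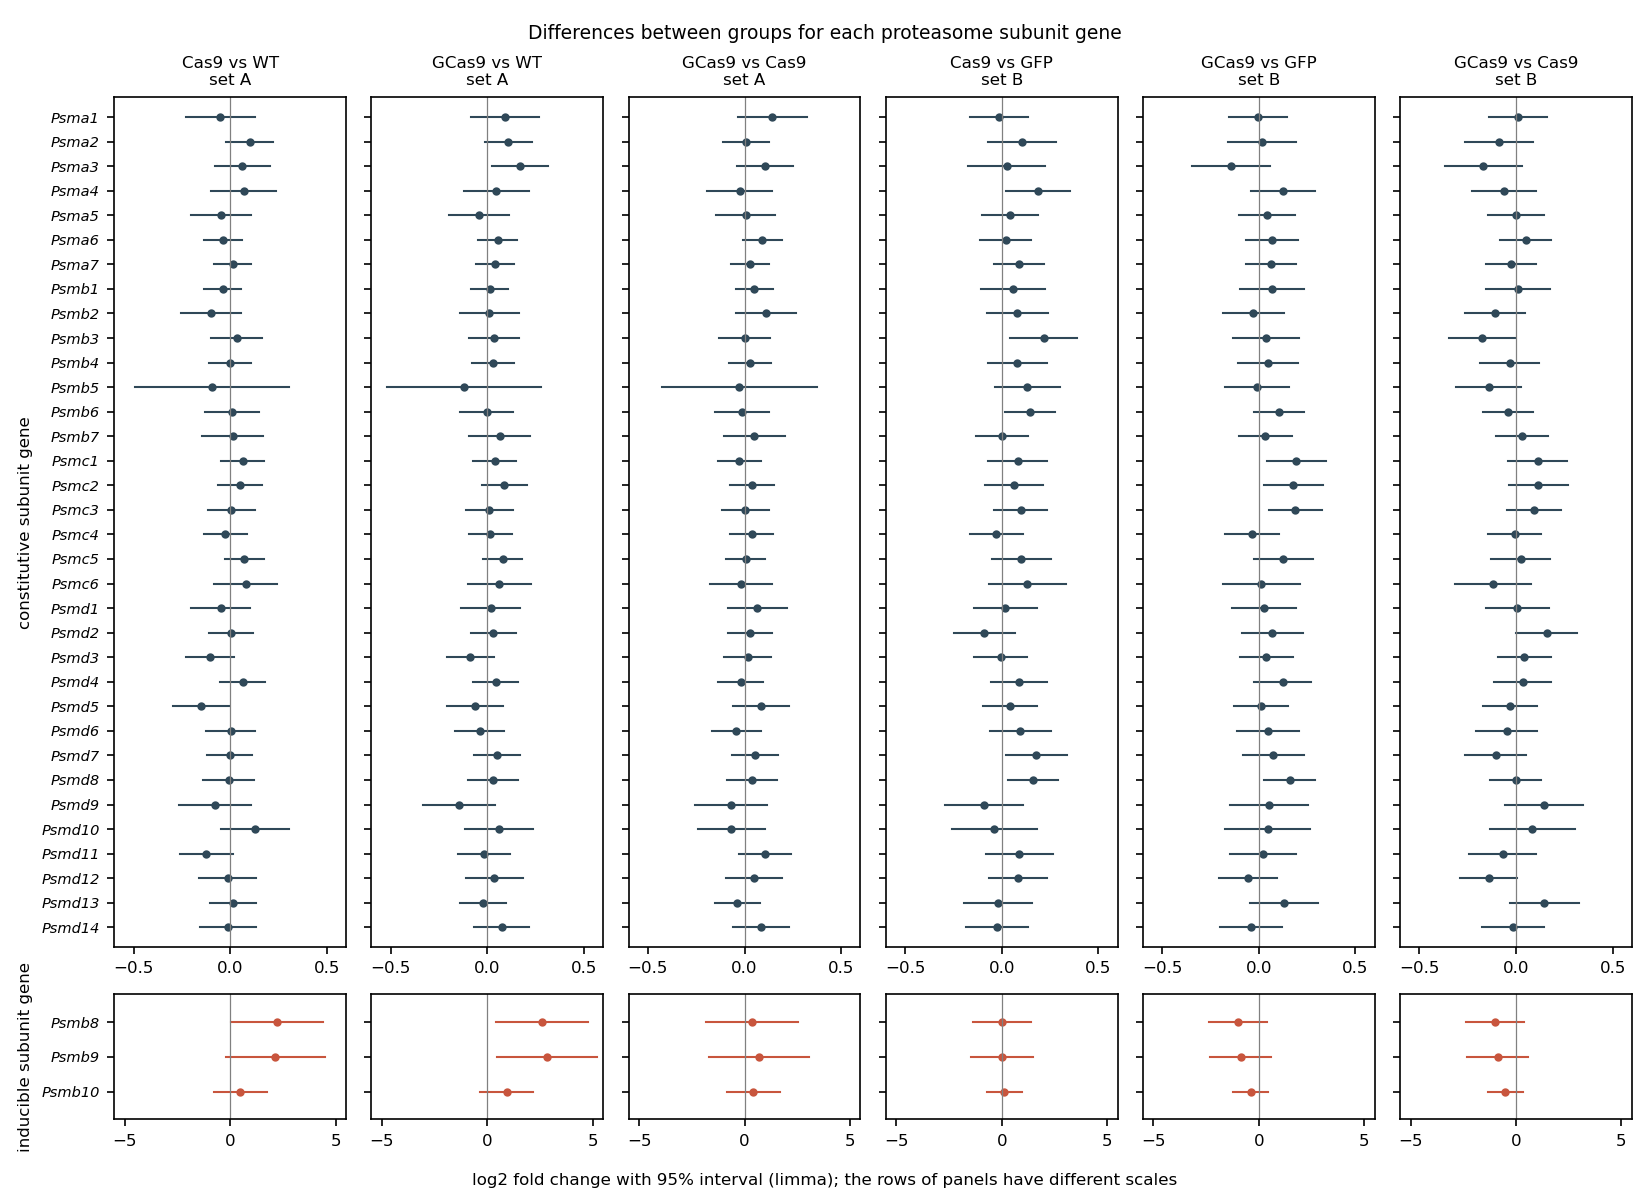
Log2 fold change (dots) with its 95% interval (lines, limma) for the 34 constitutive genes (upper panels) and the 3 inducible genes (lower panels, on a wider axis) in the 6 comparisons within a set. No member has an adjusted p under 0.05, and the estimates of constitutive genes run from -0.18 to 0.22.

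Cas9 against WT in set A addressed what the Cas9 virus changes relative to the WT label. Of 34 members, 0 were called (0.00628% of all genes tested were), 17 had a log2 fold change above 0 (49.1% of all genes did), and the median was 0.00083 against -0.0031 over all genes. Leaving out 1 library at a time moved that median between -0.024 (without WT replicate 1) and 0.020 (without WT replicate 2). The ATPase ring genes had a median of 0.057 and the lid genes -0.0091. At an unadjusted p under 0.05 there were 0 members higher and 1 lower, against 6.17% and 5.65% of all genes. Groups did not overlap in 3 members with higher values, Psma2, Psmc5 and Psmd10 (10.7% of all genes), or in 5 with lower ones, Psma6, Psmb2, Psmd3, Psmd5 and Psmd11 (8.86%). Intervals lay inside 1.19-fold for 28 of 34 members and for 25.8% of all genes.

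Psmd5 (chromosome 2, 34849734 to 34874968), a chaperone that holds ATPase subunits during assembly of the base, had the smallest p of a member here. In set A it stood at 786, 730.1 and 768 in WT, 658, 676 and 725 in Cas9 and 727, 695 and 767 in GCas9 normalized counts, listed in the order of the replicate numbers as all values below. The Cas9 libraries were all under the WT libraries, with a log2 fold change of -0.15 ± 0.064 (SE, n = 3 per group; adjusted p = 0.418 by limma), and GCas9 overlapped WT (-0.063). In set B it stood at 583, 646, 614 and 649.7 in GFP, 641, 619, 665 and 646 in Cas9 and 664, 590.2, 640.4 and 618 in GCas9, where all groups overlapped.

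Psmd11 (chromosome 11, 80428615 to 80473248) and Psmd3 (chromosome 11, 98682554 to 98695979) encode scaffold subunits of the lid. Psmd11 in set A stood at 1134, 1193 and 1168 in WT, 1061, 1085 and 1063 in Cas9 and 1193, 1057 and 1204 in GCas9, with every Cas9 library below every WT library (log2 fold change -0.12). Psmd3 in set A stood at 3306, 3369 and 3573 in WT, 2976, 3273 and 3288 in Cas9 and 3279, 3187 and 3170.1 in GCas9, where both the Cas9 and the GCas9 libraries were under all WT libraries (-0.10 and -0.088). These 2 differences share the WT libraries. In set B, Psmd11 stood at 513, 522, 536 and 469 in GFP, 514, 569, 601 and 494 in Cas9 and 529.7, 479, 543 and 518 in GCas9. Psmd3 in set B stood at 1524, 1584, 1725 and 1523 in GFP, 1662, 1562, 1580.4 and 1528 in Cas9 and 1774, 1593, 1579 and 1583 in GCas9. Neither gene separated any pair of groups there.

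Psma2 (chromosome 13, 14613240 to 14674236), an alpha ring gene, had the smallest p among members with a positive estimate in Cas9 against WT. It stood at 1249, 1334 and 1232 in WT, 1395, 1358 and 1335 in Cas9 and 1333, 1345 and 1437 in GCas9 in set A, a log2 fold change of 0.10 ± 0.053 for Cas9 and 0.11 ± 0.053 for GCas9 (adjusted p = 0.467 and 0.725 by limma). Cas9 libraries lay above all WT libraries, and the lowest GCas9 library was just under the highest WT library. Psma2 stood in set B at 1034, 987, 908 and 892 in GFP, 972, 1113, 1027 and 995 in Cas9 and 838, 1029.5, 958 and 1044 in GCas9, with overlap throughout.

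Psmd10 (chromosome X, 140948429 to 140956728) encodes gankyrin, a chaperone of the base that is also studied as an oncoprotein. It stood at 222, 234 and 231 in WT, 249, 248 and 257 in Cas9 and 234, 237 and 248 in GCas9 in set A, with Cas9 above WT in all libraries (0.13). Psmd10 stood in set B at 182, 194, 187 and 198 in GFP, 175, 161, 223 and 187 in Cas9 and 187, 193, 199 and 207 in GCas9, and Cas9 there covered the range of both other groups. Psmc5 (chromosome 11, 106256154 to 106263120), of the ATPase ring, stood at 2227, 2380.1 and 2372 in WT, 2394, 2452 and 2489 in Cas9 and 2437, 2506 and 2428 in GCas9 in set A. Its WT libraries were the 3 lowest of the set, with log2 fold changes of 0.072 for Cas9 and 0.079 for GCas9. Psmc5 stood in set B at 1859.6, 1857, 1913 and 1858 in GFP, 2010.0, 2149, 2066 and 1827 in Cas9 and 1979, 1945, 1946 and 2327 in GCas9, and the GFP libraries were under all GCas9 libraries but not under all Cas9 libraries.

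GCas9 against WT in set A asked the same of the GCas9 virus. Again 0 members were called (0.00628% of all genes), 25 of 34 had a log2 fold change above 0 (49.9% of all genes), and the median was 0.033 against -0.00029. The median fell to 0.0095, with 21 of 34 above 0, without WT replicate 1, and was 0.018 without GCas9 replicate 3. All 6 ATPase ring genes and 6 of 7 alpha ring genes were among the 25, with Psma5 the exception (-0.042). At an unadjusted p under 0.05 there was 1 member higher, Psma3, and 0 lower (4.44% and 2.33% of all genes). Groups did not overlap in Psma3, Psmc2 and Psmc5 with higher values (9.16% of all genes) or in Psmd3 and Psmd9 with lower ones (7.02%).

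Psma3 (chromosome 12, 70974621 to 70996347), of the alpha ring, stood in set A at 1132, 1099 and 1092 in WT, 1227, 1181 and 1069 in Cas9 and 1185, 1246 and 1306 in GCas9. All GCas9 libraries were above the WT libraries, with a log2 fold change of 0.17 ± 0.064 (adjusted p = 0.724 by limma). Psma3 stood in set B at 827, 711, 719.6 and 775 in GFP, 766, 712, 889.9 and 727 in Cas9 and 589, 689, 719.9 and 754 in GCas9, where the GCas9 estimate was on the other side of 0 (-0.14 against GFP) and the groups overlapped.

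Psmd9 (chromosome 5, 123169413 to 123250131), a chaperone that escorts ATPase subunits, stood in set A at 553, 611 and 531 in WT, 586, 501 and 519.9 in Cas9 and 522, 492 and 516 in GCas9. Its GCas9 libraries were below all WT libraries (-0.15 ± 0.082, adjusted p = 0.749). In set B, Psmd9 stood at 232, 243, 221 and 230.2 in GFP, 189.7, 202, 247 and 236 in Cas9 and 248, 229, 245 and 239 in GCas9. The lowest values there were Cas9 replicates 1 and 2, while the other Cas9 libraries were within the range of GFP and GCas9 together.

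Cas9 against GFP in set B compared the nuclease with a control cargo. No member was called (0.0% of all genes were), and 26 of 34 had a log2 fold change above 0, against 48.7% of all genes, with a median of 0.081 against -0.0053. Without Cas9 replicate 3 the median was 0.041 and 22 of 34 were above 0. Of the 14 genes of the 20S core that were tested, 13 were on that side, and of the 20 genes of the 19S list 13 were. At an unadjusted p under 0.05 there were 5 members higher and 0 lower, against 3.23% and 3.01% of all genes. These 5, Psma4, Psmb3, Psmb6, Psmd7 and Psmd8, were also those whose groups did not overlap (2.63% of all genes higher and 2.05% lower, with 0 members lower). The estimates were small, up to 1.16-fold for Psmb3. Beside them, the Cas9 libraries had 0.335 to 0.411% of reads on ribosomal protein genes and the GFP libraries 0.312 to 0.349%, and all Cas9 libraries were shallower than all GFP libraries, and the part of either in these values was not tested.

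Psmb3 (chromosome 11, 97703399 to 97713500), a beta ring gene without a cutting site, stood in set B at 699.8, 705, 600.5 and 652 in GFP, 757, 799, 807 and 721 in Cas9 and 605, 682, 699 and 745 in GCas9. Every Cas9 library exceeded every GFP library, with a log2 fold change of 0.22 ± 0.08 (SE, n = 4 per group; adjusted p = 0.781 by limma). GCas9 overlapped both, at -0.18 ± 0.08 against Cas9 (adjusted p = 0.995 by limma). In set A, Psmb3 stood at 787, 821 and 829.5 in WT, 835, 783 and 880.0 in Cas9 and 841, 839 and 818 in GCas9, where the estimates against WT were 0.034 and 0.035. Psmd8 (chromosome 7, 29174188 to 29180701), of the lid, stood in set B at 761, 812, 769 and 768 in GFP, 828.8, 889.6, 923 and 839 in Cas9 and 864, 828, 890.0 and 889.7 in GCas9. Its GFP libraries were the 4 lowest, with 0.16 for Cas9 and 0.16 for GCas9, differences that share the GFP libraries. Psmd8 in set A stood at 1671, 1748 and 1740.1 in WT, 1614, 1729 and 1790.3 in Cas9 and 1666, 1767 and 1842 in GCas9, and there all groups overlapped. Psmd7, also of the lid, had 0.18 ± 0.074 and Psma4, of the alpha ring, 0.19 ± 0.078 in Cas9 against GFP.

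On the other side of 0 in Cas9 against GFP, the smallest p-values were those of Psmd2, Psmd9 and Psmc4, none under 0.241. Psmd2 (chromosome 16, 20651652 to 20663414) encodes the large scaffold of the base and had the most reads of a member in both sets. It stood in set A at 3887, 4179 and 3957 in WT, 3826, 4179 and 4054 in Cas9 and 3997, 4187 and 4099.7 in GCas9. In set B it stood at 2802, 3006, 3031 and 2864 in GFP, 2815, 2754, 2856 and 2572 in Cas9 and 3428, 2699.8, 3206 and 2985 in GCas9, where GCas9 replicate 1 was the highest and Cas9 replicate 4 the lowest. Psmc4 (chromosome 7, 28041707 to 28050101), of the ATPase ring, stood in set A at 1693, 1744 and 1704 in WT, 1709.5, 1677 and 1668 in Cas9 and 1657, 1835 and 1704 in GCas9. In set B, Psmc4 stood at 1499, 1395, 1548 and 1329 in GFP, 1504, 1441, 1343 and 1368 in Cas9 and 1446, 1375, 1417 and 1384 in GCas9. No pair of groups was apart for this gene, and its estimates in the comparisons with GFP were -0.028 and -0.035.

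GCas9 against GFP in set B also gave 0 members called (0.0% of all genes). A log2 fold change above 0 was found in 27 of 34 (49.1% of all genes), with a median of 0.047 against -0.0032. Without GCas9 replicate 4 that median was 0.021, with 23 of 34 above 0. The ATPase ring stood out in size among the roles, with a median of 0.153 over 6 genes, of which Psmc1, Psmc2 and Psmc3 had unadjusted p under 0.05. With Psmd8 they made 4 members higher and 0 lower at that level, against 3.71% and 2.76% of all genes. Groups did not overlap in these 4 and Psmc5 (2.5% of all genes higher), and in 0 members with lower values (1.66%). Psmc3 had 0.19 ± 0.065 (adjusted p = 0.719 by limma).

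Psmc1 (chromosome 12, 100110154 to 100123405) encodes an ATPase whose tail opens the gate of the 20S core, and it stood in set B at 1362, 1448, 1356 and 1383 in GFP, 1299, 1555, 1608 and 1432 in Cas9 and 1568, 1538, 1557 and 1688 in GCas9. All GCas9 libraries were above all GFP libraries (0.19 ± 0.071, adjusted p = 0.728 by limma). Psmc2 (chromosome 5, 21785283 to 21803787), of the same ring, stood in set B at 898, 1039.7, 955 and 990.0 in GFP, 943, 1038, 1105 and 974 in Cas9 and 1082, 1044, 1102 and 1165 in GCas9. Its GCas9 libraries also lay above all GFP libraries, by a smaller margin (0.18 ± 0.07). In set A, Psmc1 stood at 2188, 2368 and 2323 in WT, 2293, 2458 and 2439 in Cas9 and 2396, 2324 and 2334 in GCas9. Psmc2 in set A stood at 2104, 2222 and 2241 in WT, 2142, 2376 and 2288 in Cas9 and 2330.0, 2329.7 and 2321 in GCas9, with all GCas9 libraries above WT by an estimate of 0.088.

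GCas9 against Cas9 was the comparison present in both sets. In set A, 0 of 34 members were called (0.0% of all genes), 24 had a log2 fold change above 0 (54.3% of all genes; 16 with library weights), and the median was 0.027 against 0.012. The median was 0.0031, under the 0.0086 of all genes, with 18 of 34 above 0, when Cas9 replicate 1 was left out. It was 0.015 without GCas9 replicate 3 and -0.0052 with library weights. Groups did not overlap in Psma6 and Psmb1 with higher values (4.40% of all genes) and in 0 members with lower ones (4.45%). At an unadjusted p under 0.05 there were 0 members in either direction (2.38% of all genes higher and 3.07% lower). In set B, 0 were called (0.0%), 15 were above 0 (50.6% of all genes), and the median was -0.0050 against 0.0018. Leaving out single libraries turned it to 0.027 (without Cas9 replicate 3) and 0.015 (without GCas9 replicate 2), and to -0.038 without GCas9 replicate 4. There, Psmd2 higher and Psmb3 lower had unadjusted p under 0.05, against 2.27% and 1.57% of all genes. No member separated the groups in set B in either direction, against 1.23% of all genes higher and 0.797% lower.

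Psma6 (chromosome 12, 55384222 to 55418454), of the alpha ring, stood in set A at 1322, 1306 and 1331 in WT, 1299.8, 1264 and 1294 in Cas9 and 1391, 1319 and 1400.1 in GCas9. All GCas9 libraries were above all Cas9 libraries, with a log2 fold change of 0.091 ± 0.044 (adjusted p = 0.916 by limma). In set B, Psma6 stood at 788, 817, 818 and 802 in GFP, 789, 838, 885 and 761 in Cas9 and 848, 816, 861 and 857 in GCas9, an estimate of 0.049 with overlap. Psmd12 (chromosome 11, 107479484 to 107504362), a lid scaffold gene, stood in set B at 679, 626, 632 and 619.7 in GFP, 630.1, 677, 683 and 722 in Cas9 and 583, 584, 656 and 636 in GCas9. Its highest library was of Cas9 and its 2 lowest of GCas9, and the groups overlapped (-0.14 ± 0.069, adjusted p = 0.995). Psmd12 in set A stood at 1126, 1278 and 1109 in WT, 1164, 1136 and 1176 in Cas9 and 1212, 1142 and 1244 in GCas9. Psmd13 (chromosome 7, 140881968 to 140898643), also of the lid, stood in set B at 739, 684, 619.5 and 591 in GFP, 681, 623, 652 and 636 in Cas9 and 802, 676, 702 and 694 in GCas9, with GCas9 replicate 1 the highest library (0.15). Psmd13 in set A stood at 1304, 1409 and 1388 in WT, 1352, 1387 and 1402 in Cas9 and 1404, 1341 and 1294 in GCas9, and all groups overlapped.

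Averaged over the sets, GCas9 against Cas9 had a median of 0.016 over the members and 0.0046 over all genes. The median turned to -0.0042, with 16 of 34 above 0, without GCas9 replicate 4 of set B, and to -0.0028 with library weights. No member was called (0.0% of all genes), 23 had an estimate above 0 (52.0% of all genes; 16 with library weights), and 0 had an unadjusted p under 0.05 in either direction (1.94% of all genes higher and 1.78% lower). The estimates ran from -0.088 for Psmb3 to 0.093 for Psmd2. The intervals of 33 of 34 members lay inside 1.19-fold, as did those of 41.0% of all genes. Of the members with the smallest p, Psma6 had 0.07, Psmc2 0.076, Psmc6 -0.069 and Psmd12 -0.046. The difference between the sets, set B minus set A, was also called in 0 members (0.0% of all genes). Its lowest estimates were those of Psma3, -0.27 ± 0.12 (adjusted p = 0.992 by limma), and Psmb2, -0.22 ± 0.10, the 2 members with unadjusted p under 0.05 and lower (2.05% of all genes), with 0 higher (2.29%). Psmd9 (0.21), Psmd13 (0.18) and Psmc1 (0.14) had the smallest p on the other side, and Psmd12 had -0.19. All 14 tested genes of the 20S core had an estimate below 0 and 10 of 20 in the 19S list did, so that 10 of 34 members were above 0, against 49.4% of all genes. The count of 14 did not hold in every fit. Psmb7 was above 0 with TMM scaling or DESeq2. With library weights, Psmb5 (0.19), Psmb6 (0.096) and Psmb7 (0.082) were above 0. Leaving out 1 library brought them up to 0.031, 0.027 and 0.054. The median of the members was -0.042. It was -0.016 without Cas9 replicate 3 of set B and -0.025 without GCas9 replicate 3 of set A. With library weights, 18 of 34 were above 0 and the median was 0.011. These estimates come from the same libraries and are not independent of each other.

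The cutting subunits were compared with their inducible counterparts library by library. Psmb5 (chromosome 14, 54614119 to 54618022), which cuts after hydrophobic residues and is the main target of bortezomib, stood in set A at 429, 553 and 559 in WT, 485, 391 and 576 in Cas9 and 422, 426 and 576 in GCas9. Each group of set A held low and high libraries, and all groups overlapped. In set B it stood at 486, 469, 464 and 439 in GFP, 509, 519.9, 562 and 452 in Cas9 and 444, 448, 456 and 499 in GCas9, a narrower range. Its log2 fold changes were -0.094 ± 0.18 and -0.12 ± 0.18 for Cas9 and GCas9 against WT, and 0.13 ± 0.078 and -0.0094 ± 0.078 against GFP.

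Psmb6 (chromosome 11, 70525367 to 70527858) stood in set A at 2109.8, 2086 and 2102 in WT, 2118, 1960.4 and 2275 in Cas9 and 1992, 2169 and 2125 in GCas9. Its set B values were 1539, 1587, 1461 and 1566 in GFP, 1762, 1664, 1729 and 1645 in Cas9 and 1525, 1736, 1637 and 1719 in GCas9, with every Cas9 library above every GFP library (0.14 ± 0.06, adjusted p = 0.782 by limma). Against WT its log2 fold changes were 0.01 and -0.0036. Psmb7 (chromosome 2, 38588036 to 38644087), which cuts after basic residues, stood in set A at 1652, 1655 and 1672 in WT, 1513, 1764 and 1760.0 in Cas9 and 1689, 1671 and 1850.2 in GCas9. In set B it stood at 601, 561, 549 and 567 in GFP, 558, 582, 584 and 556 in Cas9 and 547, 578, 609 and 599 in GCas9. All groups of Psmb7 overlapped in both sets, and its log2 fold changes ran from 0.0023 to 0.064 over the comparisons within a set.

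The inducible genes moved over a far wider range in the same libraries. Psmb8, the counterpart of Psmb5, stood in set A at 53.9, 44.8 and 50.4 in WT, 356, 97.6 and 376 in Cas9 and 176, 89.7 and 1704 in GCas9. Psmb9, the counterpart of Psmb6, stood at 23.1, 25 and 22.7 in WT, 179.9, 36.5 and 188 in Cas9 and 114, 44.3 and 1028 in GCas9. Psmb10, the counterpart of Psmb7, stood at 188, 191 and 179.9 in WT, 324, 186 and 294 in Cas9 and 217, 190.2 and 1045 in GCas9. GCas9 replicate 3 had by far the highest value of all 3 genes. In that library Psmb8, Psmb9 and Psmb10 were 5.08, 5.39 and 2.48 log2 units above the WT mean, while the 34 constitutive members were between -0.13 and 0.24 of it, with a median of 0.050. Over the group, Psmb8 had 2.58 ± 0.96 and Psmb9 2.83 ± 1.04 in GCas9 against WT, and 2.23 ± 0.96 and 2.14 ± 1.04 in Cas9 against WT. None of these passed (adjusted p = 0.724, 0.724, 0.419 and 0.441 by limma), although DESeq2 passed both in GCas9 against WT and fits with library weights passed both in Cas9 against WT. Without GCas9 replicate 3, the estimates of GCas9 against WT were 1.33 for Psmb8, 1.55 for Psmb9 and 0.12 for Psmb10. Over all libraries, Psmb10 had 0.49 in Cas9 and 0.91 in GCas9 against WT.

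In set B no inducible gene separated the groups. Psmb8 there stood at 899.8, 433, 558 and 126 in GFP, 291, 607, 699.9 and 227 in Cas9 and 163, 754, 148 and 94.8 in GCas9. Psmb9 stood at 377, 171, 229 and 57.3 in GFP, 113, 281, 279.7 and 99.5 in Cas9 and 76, 387, 78.7 and 32.7 in GCas9, and Psmb10 at 438, 273, 289.7 and 111 in GFP, 221, 354, 394 and 174 in Cas9 and 190.4, 337, 138 and 144 in GCas9. Each group held low and high libraries, and the GFP libraries alone spread from 126 to 899.8 for Psmb8. The estimates of GCas9 against GFP were -0.996, -0.86 and -0.40 for the 3 genes, those of Cas9 against GFP 0.0081, 0.014 and 0.12, and those of GCas9 against Cas9 -1.004, -0.88 and -0.52. GCas9 against Cas9 gave 0.35, 0.69 and 0.42 in set A, and -0.90, -0.59 and -0.36 there without GCas9 replicate 3. Library weights gave -0.81, -0.50 and -0.21. The mean over the sets was -0.33, -0.093 and -0.046, and set B minus set A was -1.35, -1.56 and -0.94.

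**Figure D4:**
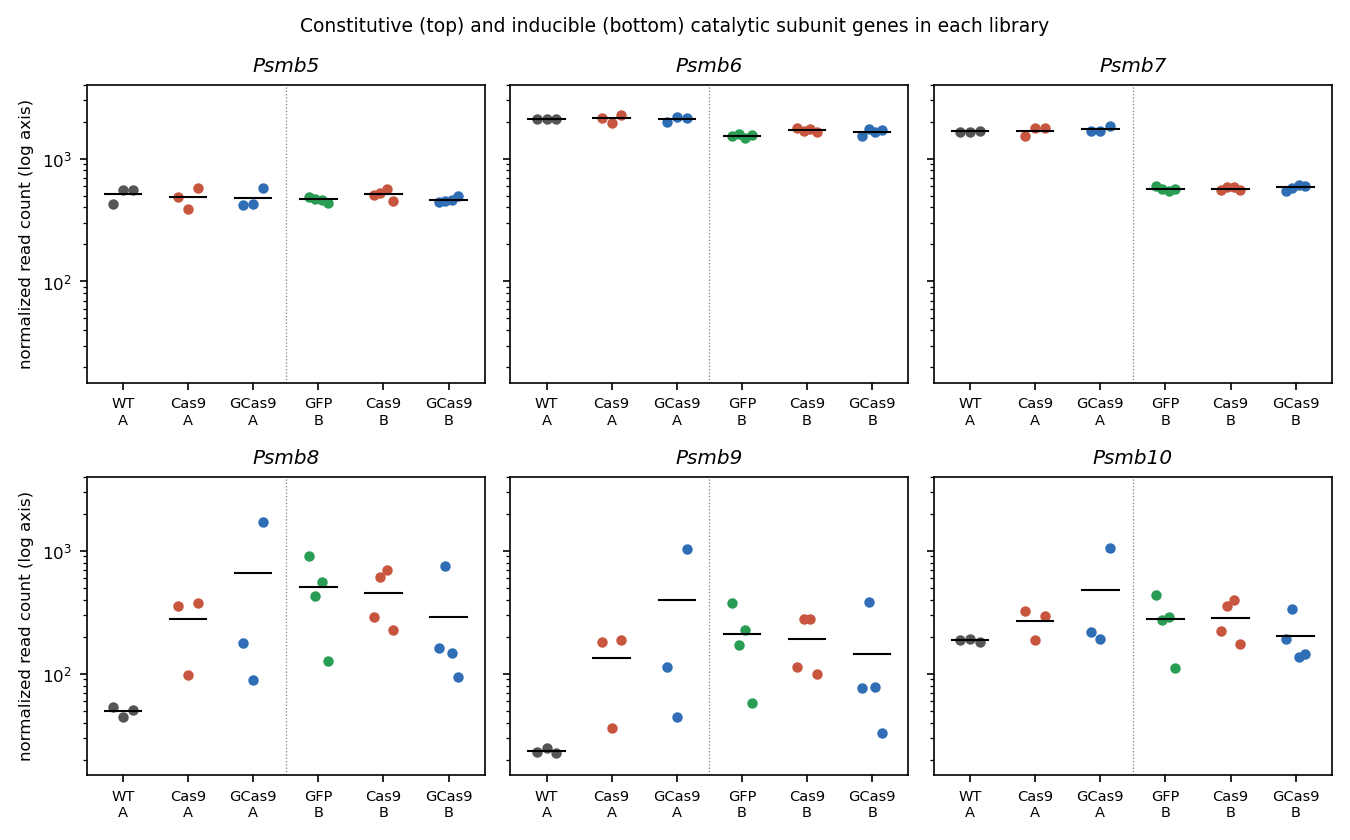
Normalized read count (log axis) of the constitutive cutting subunit genes Psmb5, Psmb6 and Psmb7 (top) and their inducible counterparts Psmb8, Psmb9 and Psmb10 (bottom) in each library (dots), with group means (lines) and a dotted line between the separately scaled sets. Within each set the constitutive genes stay in a narrow band, widest for Psmb5 in set A. Psmb8 in set A runs from 44.8 in WT to 1704 in GCas9.

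As a ratio of levels per kilobase, Psmb8 over Psmb5 was 0.046 to 0.070 in WT, 0.139 to 0.406 in Cas9 and 0.117 to 1.63 in GCas9 of set A. Psmb9 over Psmb6 was 0.0067 to 0.0074 in WT, 0.011 to 0.050 in Cas9 and 0.012 to 0.286 in GCas9. Both ratios were higher in every Cas9 and GCas9 library than in every WT library, by 2.32 ± 0.53 and 2.13 ± 0.71 log2 units (SE) in Cas9 and 2.70 ± 1.15 and 2.84 ± 1.34 in GCas9. The two-sided exact permutation p was 0.1 in each, the smallest that 3 against 3 libraries allow, and 0.45 after adjustment over 18 ratio tests. Psmb10 over Psmb7 overlapped between all groups of set A, at 0.096 to 0.103 in WT and 0.094 to 0.190 in Cas9. In set B the ratio of Psmb8 to Psmb5 was 0.160 to 1.02 in GFP, 0.278 to 0.688 in Cas9 and 0.106 to 0.928 in GCas9, and no ratio separated any groups there. The ratios were chosen with the values of these genes known.

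Other genes of the pathway were read from lists of caps, chaperones, bound enzymes, transcriptional control and ubiquitin supply, and no gene of these lists was called in any comparison. In GCas9 against WT the smallest p of each list were those of Psme1, a subunit of the interferon-inducible cap (log2 fold change 0.83), Pomp, which matures the 20S core (0.23), Txnl1, a thioredoxin bound to the cap (0.14), Nfe2l2, an antioxidant transcription factor (0.85), and Rps27a, which encodes ubiquitin fused to a ribosomal protein (0.18, adjusted p = 0.592 by limma). In Cas9 against WT they were Psme4 (0.093), Pomp (0.19), Txnl1 (0.12), Nfe2l2 (0.69) and Rps27a (0.11). GCas9 against Cas9 in set A gave Psme4 (-0.14), Pomp (0.042), Shfm1 (-0.066), Akirin2 (0.080) and Rps27a (0.064). These 3 comparisons share libraries.

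In set B, Cas9 against GFP gave Psme4 (0.11), the 20S chaperone gene Psmg4 (0.39), the small lid subunit gene Shfm1 (0.39), the protease gene Ddi2, whose product activates the factor encoded by Nfe2l1 (-0.35), and Rps27a (0.49, adjusted p = 0.781 by limma). GCas9 against GFP gave Psme3 (0.099), Pomp (0.14), Adrm1 (0.099), Nfe2l2 (-0.076) and Ubb (0.11). GCas9 against Cas9 gave Psme2 (-0.42), Psmg4 (-0.36), Ube3c (0.10), Ddi2 (0.30) and Rps27a (-0.24). The mean of the sets gave Psme4 (-0.11), Psmg3 (0.13), Ube3c (0.073), Ddi2 (0.17) and Ufd1l (0.057), and set B minus set A gave Psme2 (-0.76), Psmg4 (-0.50), Txnl1 (-0.12), Ddi2 (0.27) and Rps27a (-0.30).

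Reads recovered on genes ranged per library from 20337070 to 28045057 in set A and were fewer in set B, from 6091590 to 11069902. All 9 spiny neuron markers were detected in every group. So were all 6 choroid plexus markers, so detection alone does not identify the tissue. Summed neuronal markers (8 of 8 detected) were 126073 to 131093 in WT, 103573 to 128698 in Cas9 and 111157 to 127801 in GCas9 of set A. The summed astrocyte markers (7 of 7 detected) were 72108 to 76522 in WT, 86557 to 95691 in Cas9 and 85064 to 92460 in GCas9. The summed oligodendrocyte markers (8 of 8) were 195684 to 235607, 228536 to 378407 and 200711 to 216790 in the same groups, and microglial markers (8 of 8) 7674 to 8942, 9634 to 12700.2 and 8817 to 14829. B and plasma cell markers (6 of 6) were 428 to 546 in WT, 764 to 10033 in Cas9 and 915 to 28881 in GCas9, and T and NK cell markers 3310.2 to 3907 in WT, with Gzmb at 0, 3492 to 3726 in Cas9 and 3409 to 3736 in GCas9. These sums did not follow the single genes: 5 of the 6 T and NK cell markers tested had a log2 fold change above 0 in Cas9 and in GCas9 against WT, with medians of 2.35 and 2.24. All 6 B and plasma cell markers did in both, with medians of 2.87 and 2.84. Choroid plexus markers reached 293282 in 1 Cas9 library of set A and 10753 in 1 Cas9 library of set B, against at most 1031 in WT and 342 in GFP. In Cas9 against GFP, 4 of 4 choroid plexus markers (median 1.001) and 8 of 8 oligodendrocyte markers (median 0.13) were above 0, beside 26 of 34 members. So were 6 of 7 astrocyte (0.074), 4 of 6 endothelial (0.12), 4 of 6 B and plasma cell (0.35) and 3 of 5 T and NK cell markers (0.14). Spiny neuron markers had 5 of 9 above 0 (0.039), neuronal 3 of 8 (-0.0084) and microglial 3 of 8 (-0.033). The part of cell mixture in the count of members was not tested. In GCas9 against GFP, 27 of 34 members were above 0. So were 7 of 8 neuronal (median 0.077), 8 of 9 spiny neuron (0.092), 5 of 6 endothelial (0.20) and 3 of 4 choroid plexus markers (0.25). Astrocyte markers had 5 of 7 above 0 (0.058) and oligodendrocyte markers 5 of 8 (0.081). Microglial markers had 2 of 8 (-0.084), T and NK cell markers 2 of 5 (-0.74) and B and plasma cell markers 0 of 6 (-1.23). The part of cell mixture in that count of members was not tested either. The constitutive members had no call in any comparison with or without the Cas9 libraries of highest choroid plexus sum, and the part of cell mixture in the values of Psmb8, Psmb9 and Psmb10 was not tested.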

How the data were processed

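Bulk RNA was sequenced from 21 striatal libraries, prepared per the labels' protocols with SMARTer cDNA and Nextera XT kits, so reads are not independent molecules. Per the submitters' processing notes, the build was GRCm38.p3 and the tools included DESeq2, HTSeq, R 3.3.3, SAMtools and STAR 2.5.2b. Their roles, the annotation and strand setting are not given in the sources used here. The deposited signal is the read count per gene divided by a size factor per library, which the authors scaled apart in the 2 sets. Whole reads were recovered from all values within 0.001 reads. Reads of overlapping genes or near-identical copies could not be checked.

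Values were analysed as log2(normalized count + 1) for genes with a mean of at least 10, by limma 3.58.1 (R 4.3.3) with a mean trend, two-sided, with Benjamini-Hochberg adjustment over all genes tested and a threshold of 0.05. Fold changes are on that scale. The 3 groups of a set shared 1 fit, and all 21 libraries entered the mean and difference of the sets. edgeR 4.0.16 and DESeq2 1.42.0 on recovered reads were alternatives. The fit was tested on simulated data with changes larger than any estimate of a member, so that test does not cover differences of the members' size. Lengths and positions are from GENCODE M21 (GRCm38), all members being annotated as protein coding, and length is the union of exons of coding transcripts. Of the pathway list, Ecm29 and Paaf1 matched no symbol. Libraries of the same group differed by at least 5.81 in chi-square per gene, so none was taken as a copy of another of its group. Libraries of different groups were not compared in this way.

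The members and lists were chosen with earlier results of these data known. In each comparison the text names members with adjusted p under 0.05, the 3 of smallest p in each direction, the cutting subunits with their inducible counterparts, members too low to test, and the gene of smallest p in each other list. Values in every library are given for the cutting subunits and for members named in 2 or more comparisons. Other genes that the text singles out were chosen after their values were seen.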

Additional observations from a re-analysis of the deposited data

Results flagged for a closer look

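In groups of 4 libraries, a library was marked when its gap to the nearest other library took up more of the whole range than Dixon's 95% critical value allows. Of 114 groups tested over the members, the inducible genes and the mean log2 level of the members, 9 were marked, and chance alone marks about 1 in 20. The groups share the same libraries and are not independent. In GFP, replicate 2 was the highest library for Psmc6 at 471 normalized counts, for Psmd4 at 901 and for Psmd8 at 812. Replicate 3 of GFP was the highest for Psmc5 at 1913, with the other 3 libraries between 1857 and 1859.6. In GCas9 of set B, replicate 4 was the highest for Psmc5 at 2327, replicate 1 the highest for Psmd3 at 1774 and replicate 2 the lowest for Psmd1 at 1572. Replicate 2 of that group was also the highest for Psmb8 at 754 and for Psmb9 at 387, where the other libraries were at 163 or less and at 78.7 or less. Groups of 3 libraries in set A could not be tested in this way.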

How the results depend on the processing

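The 8 comparisons were repeated in 183 alternative fits, which varied the pseudocount, the filter, the scaling between libraries, the weights of libraries, the groups fitted together, the tool and the libraries left out. In all 183, 0 members were called, and the smallest adjusted p of a member was 0.0674, for Psmc5 (log2 fold change 0.10) in Cas9 against WT with limma weights per library. That fit called 2570 genes of any kind where the main one called 1, and for GCas9 against Cas9 in set A it called 932 against 0. DESeq2 on the recovered reads called 116 genes in Cas9 against WT, 218 in GCas9 against WT, 4 in GCas9 against Cas9 of set A, 14 in Cas9 against GFP and 41 in GCas9 against GFP. Other counts that moved were those of fits with only the 2 compared groups (6 in Cas9 against WT and 7 in GCas9 against GFP), of library weights (6 in GCas9 against WT and 12 in GCas9 against GFP), of pseudocount 4 and of edgeR (0 in Cas9 against WT with each), and of no filter (4 in the mean of the sets and 1 in set B minus set A). With library weights the median of the members for set B minus set A was 0.011. The inducible genes passed with library weights in Cas9 against WT (Psmb8 2.74, adjusted p = 0.0157; Psmb9 2.76, adjusted p = 0.0188, both by limma) and with DESeq2 in GCas9 against WT (Psmb8 3.73, adjusted p = 0.038; Psmb9 4.07, adjusted p = 0.0279). Leaving out 1 library, the most genes called were 7 in Cas9 against WT (without Cas9 replicate 2) and 9 in GCas9 against GFP (without Cas9 replicate 3 of set B). The causes were not tested.

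Signs of named results changed as follows, none of them called. With library weights, Psmb5 in Cas9 against WT was 0.16. With the same weights in GCas9 against Cas9 of set A, Psmb7 was -0.039, Psmb8 -0.81, Psmb9 -0.50 and Psmb10 -0.21, in Cas9 against GFP Psmb8 was -0.071 and Psmb9 -0.024, and in set B minus set A Psmb5 was 0.19, Psmb6 0.096 and Psmb7 0.082. DESeq2 and edgeR gave -0.14 for Psmb8 and -0.11 for Psmb9 in Cas9 against GFP, and edgeR -0.0007 for Psmb7. For the mean of the sets they gave 0.28 and 0.27 for Psmb8, 0.55 and 0.53 for Psmb9, and 0.17 and 0.16 for Psmb10. In set B minus set A, Psmb7 was 0.0029 with TMM scaling and 0.0015 with DESeq2. With quantile normalization, Psmb6 in GCas9 against WT was 0.016. Leaving out 1 library at a time, the median of the members ran from -0.024 to 0.020 in Cas9 against WT, 0.0095 to 0.049 in GCas9 against WT, 0.0031 to 0.040 in GCas9 against Cas9 of set A, 0.041 to 0.097 in Cas9 against GFP, 0.021 to 0.066 in GCas9 against GFP, -0.038 to 0.027 in GCas9 against Cas9 of set B, -0.0042 to 0.028 in the mean of the sets and -0.068 to -0.016 in set B minus set A. In the same fits, the log2 fold changes of 22 of the 95 named results crossed 0 at least once. For Cas9 against GFP in set B the ranges were Psmb10 -0.26 to 0.39, Psmb7 -0.015 to 0.029, Psmb8 -0.55 to 0.39, Psmb9 -0.51 to 0.39 and Psmc4 -0.066 to 0.0071. For GCas9 against Cas9 as the mean of the sets the ranges were Psmb10 -0.44 to 0.17, Psmb8 -0.95 to 0.11 and Psmb9 -0.73 to 0.39. For GCas9 against Cas9 in set A the ranges were Psmb10 -0.36 to 0.86, Psmb5 -0.17 to 0.11, Psmb6 -0.068 to 0.039, Psmb7 -0.023 to 0.088, Psmb8 -0.90 to 1.22 and Psmb9 -0.59 to 1.66. For Cas9 against WT in set A the ranges were Psmb5 -0.23 to 0.05, Psmb6 -0.043 to 0.064 and Psmb7 -0.024 to 0.086. For GCas9 against Cas9 in set B minus set A the ranges were Psmb5 -0.25 to 0.031, Psmb6 -0.0798 to 0.027 and Psmb7 -0.056 to 0.054. For GCas9 against GFP in set B the ranges were Psmb5 -0.047 to 0.013. For GCas9 against WT in set A the ranges were Psmb6 -0.029 to 0.032.

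Same-numbered replicates did not deviate together in every pair. Correlations of their deviations ran from -0.019 to 0.644 in set A, with 6 of 9 over 0.1, and from -0.13 to 0.462 in set B, with 7 of 12 over 0.1. No correlations of differently numbered replicates were set beside them. The numbers were not taken as pairs in the main fit, and whether they mark pairs was not settled. With the replicate number as a block, 0 members were called in each comparison. The medians of the members with the block were 0.0008, 0.033 and 0.027 for the comparisons of set A, 0.081, 0.047 and -0.005 for those of set B, 0.016 for the mean of the sets and -0.042 for set B minus set A. They equal those without the block. Each group of a set holds every replicate number once, so the block cannot change them. With the block, 2 genes of any kind were called in each comparison with WT and 5 in GCas9 against GFP. Depth limits set B more, at 6091590 to 11069902 reads per library, and Psma8 and Psmb11 were too low to test in either set.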
